A study of Mus musculus with 18 samples.

Results

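The 10 RNAs described are the U1 genes Rnu1a1, Rnu1b1, Rnu1b2 and Rnu1b6, the U3 genes Rnu3a, Rnu3b1, Rnu3b2, Rnu3b3 and Rnu3b4, and the U11 gene Rnu11, out of 30176 gene symbols that have a transcript cluster of their own on the array. A transcript cluster is a set of probes that follows a transcribed locus. Members were taken from the platform annotation as the clusters that name only that symbol, which gave 19 of 30638 such clusters, and the brightest cluster of each symbol was used. The families were chosen by values of the same arrays, the U1 genes by their change 1 day after irradiation in sshRNA cells and the U3 genes by the difference between the cell lines in the change after 7 days. Those changes are therefore given as a description, with no test. The other comparisons share arrays with them, and no p-value is given for a family where that choice favoured the difference: for U3 between the lines without irradiation and at 7 days and for the rise to 7 days in sshRNA cells, and for U1 between the unirradiated lines and between 7 days and no irradiation in sshRNA cells. Counts of members called in those comparisons are a description, from which nothing is read. How Rnu11 was chosen is not stated here. Earlier results of these data were known, so the p-values of Rnu11 may not be free of selection.

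All 3 families are short nuclear RNAs that work inside RNA-protein particles. U1 pairs with the start of most introns and is the first snRNP to bind an intron, U11 does the same for the rare introns of the minor spliceosome together with U12, and U3 is a box C/D snoRNA that pairs with the ribosomal RNA precursor in the nucleolus and is needed for the small ribosomal subunit. None of the 3 is polyadenylated. RNA polymerase II makes all 3 from compact promoters served by the SNAPc factor, and the Integrator complex cuts their 3′ ends. U1 and U11 pass through the cytoplasm to receive a ring of Sm proteins, and U3 matures within the nucleus.

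The series profiled M12-5B3, a p53-deficient mouse B lymphoma line that carries RAG transgenes kept off with tetracycline. USFKD cells carry lentiviral shRNAs against Usf1 and Usf2, which encode the transcription factors USF1 and USF2, and sshRNA cells carry a scrambled shRNA, both as puromycin-selected clones. USFKD no IR, USFKD 1d IR and USFKD 7d IR cells were collected without irradiation and 1 and 7 days after 5 Gy of ionizing radiation, and sshRNA no IR, sshRNA 1d IR and sshRNA 7d IR cells in the same way, with 3 arrays per group and 18 in all. Each line had 1 unirradiated group, so change after irradiation and change with time in culture cannot be told apart, and a clonal difference cannot be told apart from the knockdown. The study describes its replicates as independent. The labels do not say whether they were separate cultures, and p-values measure the spread between these arrays.

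The arrays hold total RNA, extracted on silica columns that retain short RNAs incompletely, and the recovery of short RNA was not measured. Usf2 read 6.42 to 7.23 in USFKD cells and 8.68 to 10.2 in sshRNA cells on the log2 scale, with no overlap. Usf1 read 5.03 to 5.31 in USFKD cells and 5.20 to 5.35 in sshRNA cells, both near the median of the 5222 negative control rows (rows whose array IDs mark them as negative controls). The Usf1 values on the array therefore do not show whether USF1 was depleted. By Western blot the study reported less nuclear USF1 and USF2 protein in USFKD cells. Of 10 B cell markers 8 were measured, with mean log2 values from 8.06 to 13.6. At 7 days 4 of these were called lower and 1 higher in USFKD cells and 3 lower in sshRNA cells. Over all clusters 2.66% were called lower and 7.29% higher in USFKD cells and 4.81% lower in sshRNA cells. Of the clusters with a mean above 12, 9.93% were called lower in USFKD and 16.7% in sshRNA cells. The part of the marker changes in the members' results was not tested. The 4 T cell and 4 myeloid markers measured lay from 3.66 to 4.65, and 4 markers of other cells a culture could hold from 4.16 to 6.66. The 7d IR arrays stood apart in their negative control rows. The 95th percentile of these rows was 9.38 to 9.73 on the 6 arrays of 7d IR cells and at most 8.75 on the 12 others.

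The members were among the brightest signals. Rnu1a1 lay between 16.89 and 18.56 on the log2 scale, with only 253 to 538 of the 72688 rows brighter on an array, while the brightest row of an array read 19.29 to 19.90. Rnu1a1 was thus above 16, the log2 limit of a 16-bit scanner, on every array, Rnu1b1 on all arrays but the 3 of sshRNA no IR cells, and Rnu1b6 on all but those and USFKD no IR replicate 2. Whether the signal of these U1 clusters was near a ceiling, which would make their changes smaller, was not tested. Rnu3a was the dimmest and lay between 11.26 and 15.92. At most 1.21% of the negative control rows reached a member's value on any array. In RefSeq all 10 are annotated as snRNA with lengths of 108 nt for Rnu11, 164 to 166 nt for the U1 genes and 212 to 218 nt for the U3 genes. Rnu1a1 neighbours the 4 Rnu3b genes there, and Rnu1b1 neighbours Rnu1b2.

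The 10 symbols did not give 10 measurements. Rnu1b1 and Rnu1b2 had identical values on all 18 arrays, and so did Rnu3b1, Rnu3b2 and Rnu3b3, which left 7 distinct profiles. Identical values in pairs or groups occurred in 1633 (2.48%) of the 65956 transcript clusters. These genes are near-identical copies, so their signal cannot be assigned to 1 copy, and each shared profile is described once below. All members but Rnu11 had another cluster, 9 in all. For Rnu1a1, Rnu1b1, Rnu1b6 and the shared Rnu3b1 profile the 2 clusters differed by 0.23 or less on average on the log2 scale, whereas the other clusters of Rnu3a, Rnu3b4 and Rnu1b2 were dimmer by 0.69, 5.20 and 10.8.

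In sshRNA cells every member was higher 7 days after irradiation, by 1.23 to 3.81 on the log2 scale. The increase was largest for the Rnu3b genes and Rnu3a, intermediate for Rnu11 and smallest for Rnu1a1. Rnu3b1 read 12.45, 12.82 and 12.76 in sshRNA no IR cells, 13.99, 13.77 and 14.06 in sshRNA 1d IR cells and 16.60, 16.42 and 16.30 in sshRNA 7d IR cells. The 3 groups were separate from each other. In USFKD cells Rnu3b1 read 13.96, 13.70 and 13.44 without irradiation, 13.89, 14.48 and 14.43 after 1 day and 15.69, 15.30 and 15.95 after 7 days. Only the 7d IR group was apart there, with the no IR and 1d IR values overlapping. In bulk RNA, a change in every cell and a change in some of the cells cannot be told apart, and on arrays scaled to a common distribution a larger share of the RNA cannot be told apart from less of other RNA.

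**Figure D1:**
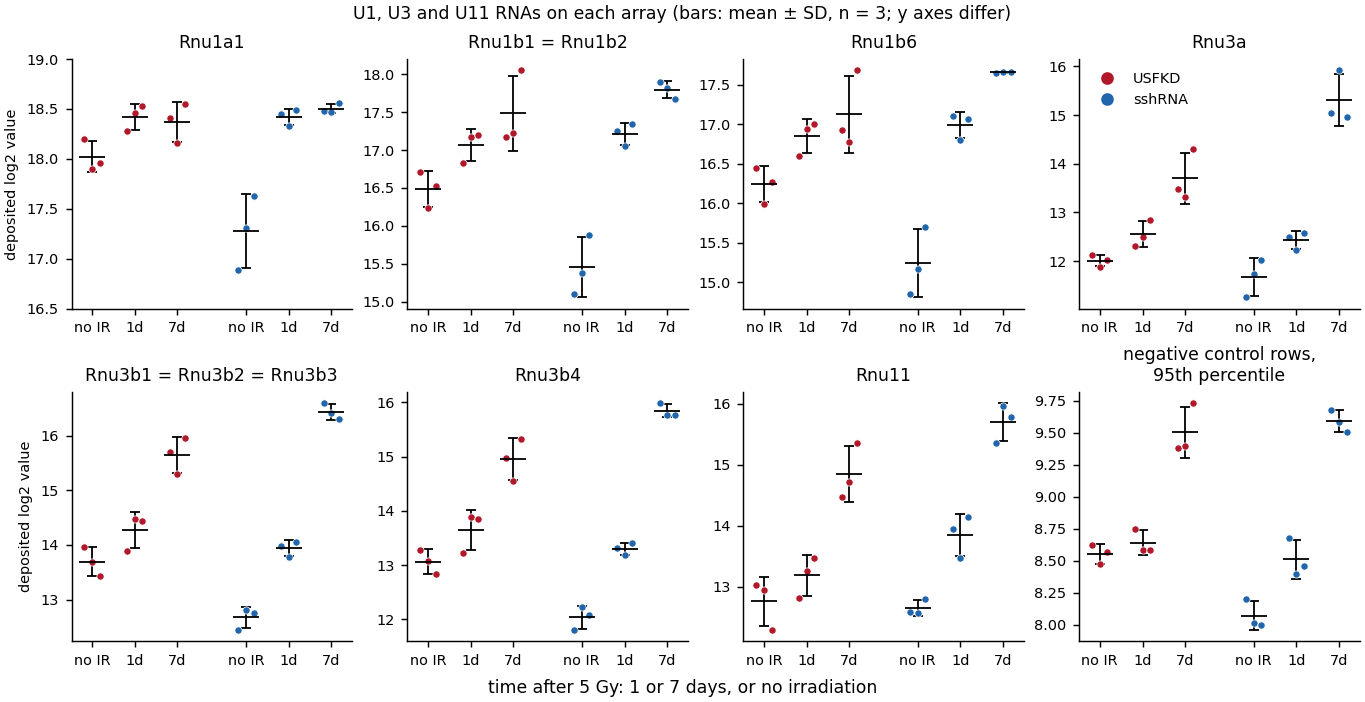
Deposited log2 values (y axis) on each array by group (x axis; USFKD in red, sshRNA in blue) for the 7 distinct member profiles and for the 95th percentile of the negative control rows; black bars give the mean ± SD of 3 arrays. Rnu3b1, for example, averages 13.70, 14.27 and 15.65 over time in USFKD cells and 12.68, 13.94 and 16.44 in sshRNA cells, and the 95th percentile of the control rows is likewise highest on the 7d IR arrays of both lines.

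The other U3 profiles followed Rnu3b1. Rnu3b4, one of the Rnu3b copies with a probe set of its own, averaged 13.07 ± 0.23, 13.65 ± 0.37 and 14.95 ± 0.39 in USFKD no IR, 1d IR and 7d IR cells, and 12.04 ± 0.21, 13.30 ± 0.11 and 15.84 ± 0.12 in the sshRNA groups (SD, n = 3 each). Rnu3a, the copy on another chromosome, read 12.12, 11.89 and 12.02 in USFKD no IR cells, 12.31, 12.50 and 12.85 in USFKD 1d IR cells and 13.48, 13.33 and 14.30 in USFKD 7d IR cells. In sshRNA cells it read 11.26, 11.73 and 12.03 without irradiation, 12.49, 12.22 and 12.57 after 1 day and 15.03, 15.92 and 14.97 after 7 days. At 7 days the highest USFKD array lay below the lowest sshRNA array, while without irradiation and at 1 day the lines overlapped.

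The U1 genes changed mostly within the first day in sshRNA cells, the change by which they were chosen. Rnu1b1 read 16.71, 16.24 and 16.52 in USFKD no IR cells, 16.82, 17.18 and 17.20 in USFKD 1d IR cells and 17.18, 17.23 and 18.05 in USFKD 7d IR cells. It read 15.10, 15.38 and 15.88 in sshRNA no IR cells, 17.25, 17.06 and 17.35 in sshRNA 1d IR cells and 17.90, 17.81 and 17.68 in sshRNA 7d IR cells. The sshRNA no IR arrays were the lowest, below every other group. Rnu1b6 had the same order of groups, with 16.24 ± 0.23, 16.85 ± 0.21 and 17.13 ± 0.49 in USFKD cells over time and 15.24 ± 0.43, 16.99 ± 0.17 and 17.66 ± 0.0084 in sshRNA cells (SD, n = 3 each). Rnu1a1 averaged 18.02 ± 0.16, 18.42 ± 0.13 and 18.37 ± 0.20 in USFKD cells and 17.27 ± 0.37, 18.42 ± 0.078 and 18.50 ± 0.049 in sshRNA cells (SD, n = 3 each). Its 4 irradiated groups overlapped, and the sshRNA no IR group lay below all others.

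Rnu11, the U1 counterpart for minor introns, had its highest values at 7 days in both lines. It read 13.02, 12.95 and 12.29 in USFKD no IR cells, 12.82, 13.26 and 13.47 in USFKD 1d IR cells and 14.47, 14.71 and 15.35 in USFKD 7d IR cells. It read 12.58, 12.56 and 12.80 in sshRNA no IR cells, 13.94, 13.47 and 14.13 in sshRNA 1d IR cells and 15.36, 15.96 and 15.79 in sshRNA 7d IR cells. The 7d IR groups stood above all other groups and, by a narrow gap, apart from each other. The USFKD no IR group overlapped with both the sshRNA no IR and the USFKD 1d IR group, which lay narrowly apart from each other.

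The order of the 6 group means was alike among the profiles. The sshRNA 7d IR group was the highest and the sshRNA no IR group the lowest for all 7. For the Rnu3b genes, Rnu3a and Rnu11 the USFKD 7d IR group came next below the highest, with no overlap on either side. For Rnu1b1 and Rnu1b6 the 2 groups at 7 days and the 2 at 1 day overlapped with their neighbours in the order, and the USFKD no IR and sshRNA no IR groups were each apart. For Rnu11 the USFKD no IR and sshRNA no IR groups, at 12.75 ± 0.40 and 12.65 ± 0.13 (SD, n = 3 each), did not differ beyond their spread. The choice favoured a low sshRNA no IR group for the U1 and U3 genes and a high sshRNA 7d IR group for the U3 genes. The share of all clusters without overlap was not computed, so nothing is read from this order or these separations.

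To ask whether depletion of USF1 and USF2 goes with other levels before irradiation, USFKD no IR cells were set against sshRNA no IR cells. A difference is called where limma, fitted over all 72688 rows, gives a Benjamini-Hochberg adjusted p under 0.05 and the change exceeds 1.5-fold. By this rule 8 of the 10 members, in 5 of 7 profiles, were higher in USFKD no IR cells, against 1.86% of all clusters, 8.93% of the clusters with a mean above 12 and 1.93% of the negative control rows. The choice of the U1 and U3 genes favoured this difference, so the count cannot answer that question for them. Rnu1b1 was 2.05-fold higher (log2 1.03 ± 0.23 SE), Rnu1b6 differed by 1.00 ± 0.23 and Rnu1a1 by 0.75 ± 0.15. Rnu3b1 differed by 1.02 ± 0.19 and Rnu3b4 by 1.03 ± 0.20. Rnu3a, at 0.34 ± 0.28, and Rnu11, at 0.11 ± 0.26 (adjusted p = 0.926), were not called. The median difference was 1.02 over the member symbols, with a shared profile counted for each of its symbols, 0.03 over all clusters and 0.18 over the negative control rows.

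The call rested on the scaling and on single arrays. With each array centred on the 95th percentile of its negative control rows none of the 10 members was called, and the differences of the U1 genes lay between 0.27 and 0.55. Without sshRNA no IR replicate 1, whose Rnu1a1, Rnu1b1 and Rnu1b6 values were the lowest of all arrays, 4 members were called, with Rnu1a1 at 0.55 and Rnu1b6 at 0.80. Without USFKD no IR replicate 1 the count was 5.

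After 1 day the lines were closer for the U1 and U3 genes, whose difference without irradiation was favoured by their choice. For Rnu11 the lines were further apart, at -0.66 against 0.11 without irradiation. No member was called between USFKD 1d IR and sshRNA 1d IR cells (limma), where 1.60% of all clusters were called higher and 1.80% lower, and 1 member, Rnu11, had an unadjusted p under 0.05. The differences ranged from -0.66 to 0.35 on the log2 scale, and all members overlapped between the lines. The share of all clusters that overlapped was not computed. Rnu11 had the lowest difference, -0.66 ± 0.26 (adjusted p = 0.214), and Rnu3b4 the highest, 0.35 ± 0.20 (adjusted p = 0.515), in each case with an interval that does not exclude a difference of 1.5-fold.

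After 7 days the direction was the opposite of that without irradiation. In USFKD 7d IR cells 6 members, in 4 profiles, were lower than in sshRNA 7d IR cells, against 3.65% of all clusters, 15.4% of the clusters with a mean above 12 and 2.24% of the negative control rows. The choice of the U3 genes favoured this difference, so the count is a description. Rnu3a fell furthest, to 0.33-fold (log2 -1.60 ± 0.28 SE), followed by Rnu3b4 (-0.89 ± 0.20), Rnu11 (-0.86 ± 0.26, adjusted p = 0.0449) and Rnu3b1 (-0.79 ± 0.19). The U1 genes were not called, with -0.13 for Rnu1a1, -0.31 for Rnu1b1 and -0.53 for Rnu1b6. The median was -0.79 over the member symbols, with a shared profile counted for each of its symbols, -0.04 over all clusters and 0.07 over the negative control rows. The 95th percentile of the negative control rows was 9.38 to 9.73 on the USFKD 7d IR arrays and 9.50 to 9.68 on the sshRNA 7d IR arrays.

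The count at 7 days changed with the processing. Quantile normalization of the deposited values left 2 called members, Rnu3a and Rnu3b4. A fit to the 6 arrays compared left 0 called, and the cause was not tested. Without USFKD 7d IR replicate 2 the count was also 2, with Rnu3b1 at -0.62. The call of Rnu11 was lost when any of 10 arrays was left out, with adjusted p of 0.0526 to 0.151.

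**Figure D2:**
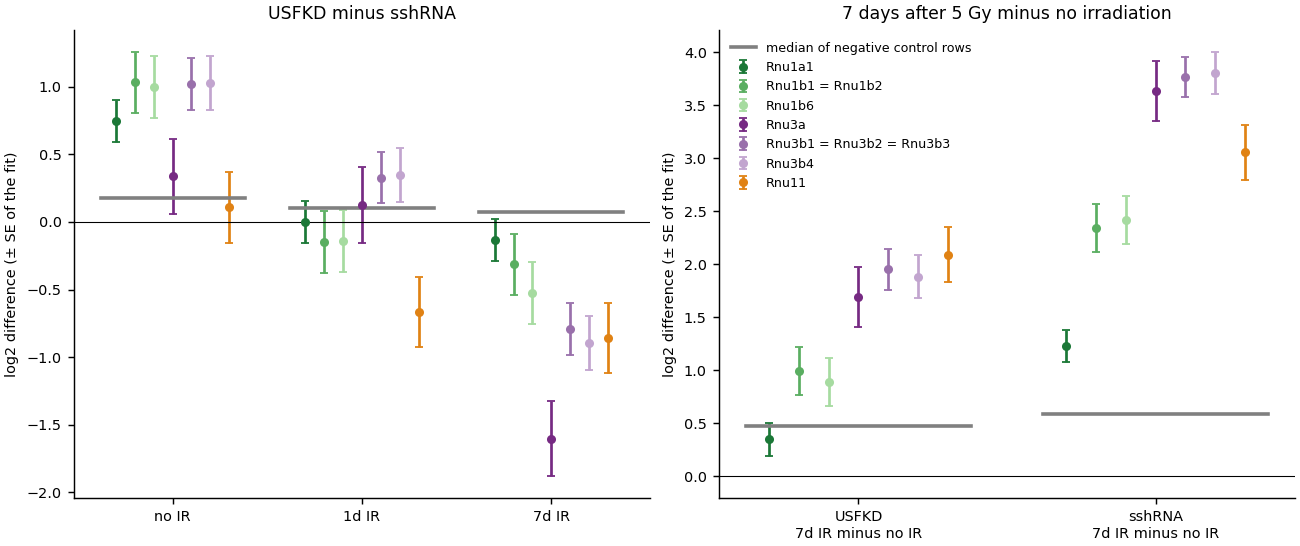
Log2 differences (y axis, points with ± SE of the limma fit) of the 7 member profiles, on the left between USFKD and sshRNA cells at each time and on the right between 7d IR and no IR cells of each line; grey bars give the median of the negative control rows. The U1 and Rnu3b profiles lie at 0.75 to 1.03 without irradiation, and all 7 profiles lie below 0 at 7 days.

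Within the sshRNA line, the change in the first day is the one that chose the U1 genes, so it has no test here. All 10 members were past 1.5-fold higher in sshRNA 1d IR than in sshRNA no IR cells, where 4.37% of all clusters and 24.6% of the negative control rows were past that size. Rnu1b1 was highest, at 3.39-fold (log2 1.76 ± 0.23 SE), with Rnu1b6 at 1.75, Rnu3b1 and Rnu3b4 at 1.27, Rnu11 at 1.20, Rnu1a1 at 1.15 and Rnu3a at 0.76. No member overlapped between the 2 groups. The share of all clusters without overlap was not computed, so nothing is read from this separation.

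By 7 days all 10 members were called higher in sshRNA 7d IR than in sshRNA no IR cells, where 11.5% of all clusters, 37.9% of the clusters with a mean above 12 and 23.1% of the negative control rows were called higher. Rnu3b1 was 13.6-fold higher (log2 3.76 ± 0.19 SE), Rnu3b4 differed by 3.81 ± 0.20 and Rnu3a was 12.4-fold higher (3.63 ± 0.28). Rnu11 was 8.31-fold higher (3.05 ± 0.26, adjusted p = 1.2e-06), with a p-value that may not be free of selection. The U1 genes changed less, with 5.34-fold for Rnu1b6 (2.42 ± 0.23), 5.07-fold for Rnu1b1 (2.34 ± 0.23) and 2.35-fold for Rnu1a1 (1.23 ± 0.15). The median was 3.34 over the member symbols, with a shared profile counted for each of its symbols, 0.18 over all clusters and 0.59 over the negative control rows.

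Between 1 and 7 days the U3 genes and Rnu11 changed by more than the U1 genes in sshRNA cells. The U1 genes were chosen by their change after 1 day and the U3 genes by the 7-day difference between the lines. Both choices favour the larger change of the U3 genes, so nothing is read from this order. Whether the U1 signal was near a ceiling was not tested. Between sshRNA 7d IR and sshRNA 1d IR cells 7 members, in 5 profiles, were called higher, against 7.86% of all clusters and 13.9% of the negative control rows. Rnu3a was 7.34-fold higher at 7 days (log2 2.88 ± 0.28 SE), Rnu3b4 5.82-fold (2.54 ± 0.20), Rnu3b1 5.65-fold (2.50 ± 0.19) and Rnu11 3.62-fold (adjusted p = 0.000154). Among the U1 genes Rnu1b6 was called, at 0.67 ± 0.23 (adjusted p = 0.0427), a call lost when any of 10 arrays was left out. Rnu1b1 was just under the 1.5-fold limit, at 0.58, with no overlap between the 2 groups, and Rnu1a1 differed by 0.08.

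Against no irradiation the members of the USFKD line changed in the same direction as in sshRNA cells, by less. The choice of the U1 and U3 genes favoured larger changes in sshRNA cells, so nothing is read from the smaller size. Between USFKD 1d IR and USFKD no IR cells the members differed by 0.40 to 0.61 on the log2 scale, with none called by limma and 8 at an unadjusted p under 0.05. No cluster on the array was called in that comparison (0%), where 8.29% had an unadjusted p under 0.05. Rnu1b6 had the largest of these differences, 0.61 ± 0.23 (adjusted p = 0.491), and Rnu1a1 the smallest, 0.40 ± 0.15 (adjusted p = 0.505).

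Between USFKD 7d IR and USFKD no IR cells 9 members, all but Rnu1a1, were called higher, against 7.29% of all clusters, 25.6% of the clusters with a mean above 12 and 13.9% of the negative control rows. Rnu11 was 4.25-fold higher (log2 2.09 ± 0.26 SE, adjusted p = 8.58e-05), Rnu3b1 3.87-fold (1.95 ± 0.19, adjusted p = 1.34e-05), Rnu3b4 3.69-fold (1.88 ± 0.20, adjusted p = 2.57e-05) and Rnu3a 3.23-fold (1.69 ± 0.28, adjusted p = 0.000703). Rnu1b1 was 2.00-fold higher (adjusted p = 0.00671) and Rnu1b6 1.85-fold (0.89 ± 0.23, adjusted p = 0.0143). The call of Rnu1b6 was lost without USFKD no IR replicate 2 (0.77, adjusted p = 0.0662) and without USFKD 7d IR replicate 3 (0.61, adjusted p = 0.0692), and on the 95th percentile of the negative control rows Rnu1b1 differed by 0.05 and Rnu1b6 by -0.060. Rnu1a1 differed by 0.35 ± 0.15 (adjusted p = 0.139).

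Between USFKD 7d IR and USFKD 1d IR cells 6 members, in 4 profiles, were called higher, against 4.95% of all clusters and 10.2% of the negative control rows. These were Rnu11 by 1.66 ± 0.26 (adjusted p = 0.000593), Rnu3b1 by 1.38 ± 0.19 (adjusted p = 0.000221), Rnu3b4 by 1.30 ± 0.20 (adjusted p = 0.000527) and Rnu3a by 1.15 ± 0.28 (adjusted p = 0.0116). Without USFKD 7d IR replicate 3, the highest of its group for all members, Rnu3a was no longer called (0.85, adjusted p = 0.0543), and on the 95th percentile of the negative control rows 2 members were called. The U1 genes differed by -0.05 to 0.42 and were not called.

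The difference between the lines in the response to irradiation has no test here because it contains the changes that chose the members. At 7 days the response was smaller in USFKD than in sshRNA cells for all 10 members, each past 1.5-fold, where 4.87% of all clusters and 28.6% of the negative control rows were past that size in the same direction. Rnu3a differed by -1.94 ± 0.39, Rnu3b4 by -1.92 ± 0.28, Rnu3b1 by -1.81 ± 0.27, Rnu1b6 by -1.53 ± 0.32, Rnu1b1 by -1.35 ± 0.32, Rnu11 by -0.97 ± 0.37 and Rnu1a1 by -0.88 ± 0.22 (log2, SE). At 1 day 9 members were past 1.5-fold, from -0.68 for Rnu3b4 to -1.18 for Rnu1b1, with Rnu3a at -0.21, where 1.86% of all clusters and 21.0% of the negative control rows were past that size in the same direction. The difference at 7 days joins a higher level in unirradiated USFKD cells with a lower level in irradiated USFKD cells for the Rnu3b genes (1.02 and -0.79 for Rnu3b1), whereas for Rnu3a and Rnu11 it lay mostly at 7 days (0.34 and -1.60 for Rnu3a).

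The other clusters of the same genes did not all follow. The other Rnu3a cluster read 13.54, 13.37 and 14.24 in USFKD 7d IR cells and 10.80, 10.68 and 10.25 in USFKD no IR cells, and 15.51, 16.86 and 15.61 in sshRNA 7d IR cells and 9.91, 10.27 and 10.48 in sshRNA no IR cells. It thus gave larger changes than the brightest cluster, 3.14 in USFKD and 5.77 in sshRNA cells. The other Rnu3b4 cluster gave 0.89 in USFKD and 0.77 in sshRNA cells, and between USFKD no IR and sshRNA no IR cells it differed by -0.58, the opposite direction. The other Rnu1b2 cluster stayed between 5.70 and 7.03 on all arrays, near the negative control rows, so the brightest cluster's level does not stand for both.

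**Figure D3:**
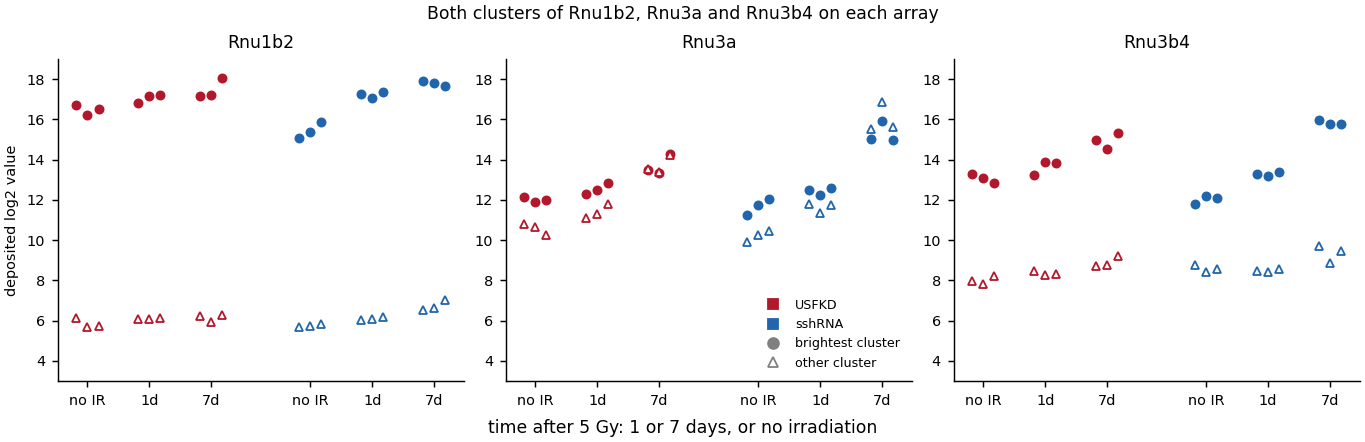
Deposited log2 values (y axis) on each array by group (x axis; USFKD in red, sshRNA in blue) for the brightest cluster (filled circles) and the other cluster (open triangles) of Rnu1b2, Rnu3a and Rnu3b4. The 2 clusters of Rnu1b2 are 10.8 apart on average, while those of Rnu3a cross in sshRNA 7d IR cells.

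The negative control rows moved in the direction of the members, and their part in the members' changes was not tested. Centring moves every row of a comparison by the same amount. With each array centred on the median of its negative control rows Rnu3b4 was higher at 7 days by 1.44 in USFKD and 3.23 in sshRNA cells, and Rnu11 by 1.64 and 2.48, while Rnu1a1 differed by -0.10 and 0.65. On the 95th percentile of those rows Rnu3b1 was still higher by 1.00 in USFKD and 2.25 in sshRNA cells, Rnu3a by 0.74 and 2.12 and Rnu11 by 1.14 and 1.54. Rnu1a1 was then lower in both lines (-0.60 in USFKD and -0.29 in sshRNA cells), and Rnu1b1 was near 0 in USFKD cells (0.05).

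**Figure D4:**
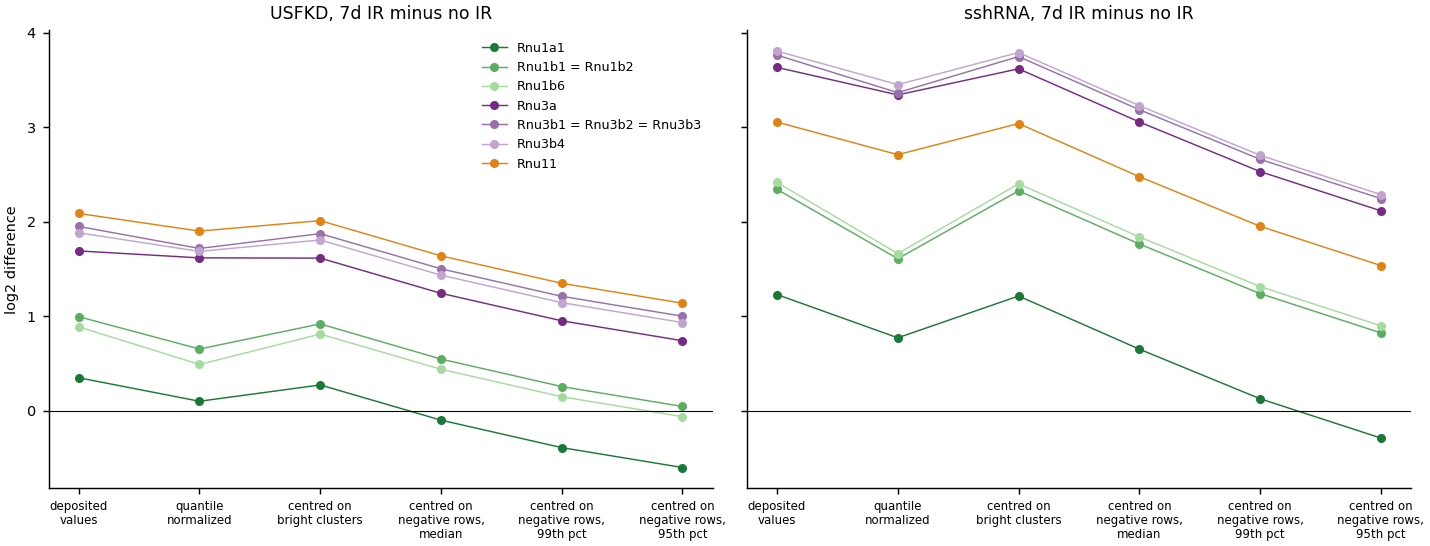
Log2 difference between 7d IR and no IR cells (y axis) of the 7 member profiles in USFKD (left) and sshRNA cells (right) for the deposited values and 5 other scalings (x axis). On the 95th percentile of the negative control rows Rnu3b1 lies at 1.00 in USFKD and 2.25 in sshRNA cells, and Rnu1a1 at -0.60 and -0.29.

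The genes whose values over the 18 arrays were most like those of the members, by Pearson's r among 5450 symbols with a mean above the 95th percentile of the negative control rows, are a description, since the arrays share 6 groups and the same shift in control rows. For the mean of the Rnu1b profiles they were Gm24830 and Gm26232, which carry the same values as the other Rnu1b6 cluster, then Gm22614, Gm25890 and Gm26110 (r from 0.997 to 0.989). RefSeq annotates all of these but Gm26232 as snRNA. For the mean of the Rnu3b profiles they were Gm24826, annotated as snoRNA (r = 0.993), the box C/D snoRNA Snord71, Gm24339, Gm25419 and Snrnp48, which encodes a protein of the U11/U12 particle (r = 0.968). For Rnu11 they were the ribosomal protein pseudogenes Rpl35a-ps2 (r = 0.971) and Rpl35a-ps5, then Gm25781, Gm22971 and Gm24508.

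Other short nuclear and polymerase III RNAs did not move as 1 group. Of 23 listed, 18 were measured, and at 7 days 3 were called higher and 1 lower in USFKD cells and 4 higher and 1 lower in sshRNA cells. Over all clusters 7.29% were called higher and 2.66% lower in USFKD cells and 11.5% higher and 4.81% lower in sshRNA cells, the shares that the counts of the next lists are set against. The median change was 0.06 in USFKD and 0.34 in sshRNA cells, against 0.10 and 0.18 over all clusters. Rn5s, the 5S ribosomal RNA, averaged 14.54 ± 0.41, 16.01 ± 0.85 and 16.58 ± 0.54 over time in USFKD cells and 14.54 ± 0.67, 16.62 ± 0.24 and 18.17 ± 0.23 in sshRNA cells (SD, n = 3 each), a change over 7 days of 2.04 ± 0.40 (adjusted p = 0.0025) and 3.63 ± 0.40 (adjusted p = 1.05e-05). Terc, the telomerase RNA, was higher by 1.10 ± 0.13 and 1.35 ± 0.13 in the 2 lines, and Rnu6, the U6 RNA of the spliceosome's catalytic core, by 1.25 ± 0.20 in sshRNA cells. Rnu12, the partner of U11, averaged 6.71 ± 0.093 in USFKD 7d IR and 6.04 ± 0.18 in USFKD no IR cells, and 6.96 ± 0.28 in sshRNA 7d IR and 5.84 ± 0.065 in sshRNA no IR cells (SD, n = 3 each), with its call in USFKD cells lost without USFKD no IR replicate 2 (0.56, adjusted p = 0.0486). Terc and Rnu12, with means over all arrays of 7.36 and 6.28, lay below the 95th percentile of the negative control rows, so their changes are not set apart from background. The RNAs called lower were Rny3 in USFKD cells, which fell by 1.06 ± 0.26 and was no longer called without either of 2 arrays (-0.92 and -0.82), and Rn4.5s in sshRNA cells, which fell by 1.47 ± 0.38. On the 95th percentile of the negative control rows Terc and Rnu6 in sshRNA cells turned to -0.17 and -0.27.

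Some short RNAs were lower at 7 days than at 1 day, and others were higher. Of the 18, 4 were called lower and 1 higher in USFKD cells, and 3 lower and 3 higher in sshRNA cells. Over all clusters 3.52% were called lower and 4.95% higher in USFKD cells, and 4.33% and 7.86% in sshRNA cells. In USFKD cells 4 of the 18 fell, the Y RNA Rny3 by 1.44 (adjusted p = 0.00195), Rny1 by 1.32 (adjusted p = 0.00796), Rnu5g, a U5 RNA, by 1.15 (adjusted p = 0.0108) and Rnu2-10, a U2 RNA, by 0.97 (adjusted p = 0.0137). Rnu5g, with a mean of 8.81, lay below the 95th percentile of the negative control rows on the 7d IR arrays. The call of Rnu2-10 was lost without USFKD 1d IR replicate 3 (-0.84) or USFKD 7d IR replicate 2 (-0.81). In sshRNA cells 3 of 18 fell, among them Rny1 by 1.19 (adjusted p = 0.00932) and Rnu5g by 1.02 (adjusted p = 0.0142), that call lost without sshRNA 1d IR replicate 1 (-0.90) or sshRNA 7d IR replicate 1 (-0.76). Between USFKD 7d IR and sshRNA 7d IR cells Rnu6 differed by -1.05 ± 0.20 (adjusted p = 0.00299) and Rn5s by -1.59 ± 0.40 (adjusted p = 0.0175), the second call lost without sshRNA 7d IR replicate 2 (-1.49) or USFKD 7d IR replicate 2 (-1.29).

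For mRNAs of the particles' proteins few calls were made. Of 14 measured genes for U1 and Sm proteins 0 were called higher at 7 days in either line by limma, 2 were called lower in USFKD cells and 3 in sshRNA cells (2.66% and 4.81% of all clusters). Tia1, which helps U1 bind weak introns, fell by 0.72 in USFKD cells (adjusted p = 0.00281), and Snrpd3, a protein of the Sm ring, by 0.77 (adjusted p = 0.00437). In sshRNA cells Nkap, Snrnp70, which binds U1 directly, and Tia1 fell by 0.65, 0.60 and 0.59, each just past 1.5-fold and each no longer called when any of 1, 2 or 3 arrays was left out, with values of -0.57, -0.56 to -0.55 and -0.56 to -0.49. Of 9 genes for U11/U12 proteins 1 was called higher in each line and none lower, a share near that over all clusters. This was Snrnp48, which averaged 10.61 ± 0.19 in USFKD 7d IR and 9.69 ± 0.17 in USFKD no IR cells, and 11.20 ± 0.19 in sshRNA 7d IR and 9.31 ± 0.16 in sshRNA no IR cells (SD, n = 3 each), although in USFKD cells its change was -0.026 on the 95th percentile of the negative control rows.

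Of 34 measured genes for proteins of the U3 snoRNP and the small subunit processome, the assembly on the ribosomal RNA precursor that U3 is part of, 10 were called lower and 1 higher at 7 days in USFKD cells and 15 lower and 1 higher in sshRNA cells. Over all clusters 2.66% were called lower in USFKD and 4.81% in sshRNA cells, and 9.93% and 16.7% of the clusters with a mean above 12. The median change was -0.35 in USFKD and -0.43 in sshRNA cells. Nol6, an early assembly factor, averaged 9.79 ± 0.16 in USFKD 7d IR and 10.61 ± 0.14 in USFKD no IR cells, and 10.21 ± 0.20 in sshRNA 7d IR and 12.17 ± 0.05 in sshRNA no IR cells (SD, n = 3 each). In sshRNA cells it fell by 1.96 (adjusted p = 1.28e-07), Wdr46 by 1.83 (adjusted p = 1.72e-05), Noc4l by 1.49 (adjusted p = 1.16e-05) and Imp4, a direct partner of U3 with Imp3 and Mphosph10, by 1.43 (adjusted p = 7.96e-07). In USFKD cells Tbl3 fell by 1.32 (adjusted p = 0.000877), Noc4l by 1.27 (adjusted p = 0.000125) and Dhx37, the helicase that releases U3, by 1.00 (adjusted p = 0.0011), while Imp3 was higher by 1.26 ± 0.19 (adjusted p = 0.000356). Without irradiation 4 of the 34 were lower in USFKD than in sshRNA cells, among them Nol6 (-1.56 ± 0.12) and Pwp2 (-1.20 ± 0.19), and none was higher. Over all clusters 2.6% were called lower and 1.86% higher in that comparison. Of the clusters with a mean above 12, 9.22% were called lower and 8.93% higher.

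Part of the genes that serve the making of these RNAs were lower at 7 days. Of 26 measured genes of snRNA transcription and 3′ end formation 9 were called lower in USFKD and 14 in sshRNA cells, and none higher, with medians of -0.38 and -0.66. The counts called lower changed with the processing, from 5 to 24 in USFKD and from 9 to 26 in sshRNA cells. The highest counts came with centring on the 95th percentile of the negative control rows, where the share of all clusters called lower was not computed. Over all clusters 2.66% were called lower in USFKD and 4.81% in sshRNA cells. In USFKD cells the Integrator subunits Ints4 and Ints2 fell by 1.18 (adjusted p = 2.12e-05) and 1.08 (adjusted p = 1.33e-05), Larp7, which binds the 7SK RNA, by 1.15 (adjusted p = 5.45e-05) and Snapc4, the DNA-binding subunit of SNAPc, by 1.09 (adjusted p = 5.42e-05). In sshRNA cells Ints3 fell by 1.57 (adjusted p = 1.82e-06), Ints9, of the Integrator cleavage module, by 1.49 (adjusted p = 3.11e-07), Larp7 by 1.44 (adjusted p = 2.67e-06) and Ints7 by 1.35 (adjusted p = 9.61e-06). Without irradiation 4 were lower in USFKD than in sshRNA cells, led by Larp7 at -1.22 ± 0.13, and 2 were higher, Snapc4 and Hexim1, the 7SK-bound inhibitor of P-TEFb, the second at 0.75 ± 0.12. The shares in that comparison were 2.6% lower and 1.86% higher over all clusters. They were 9.22% and 8.93% over the clusters with a mean above 12.

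Of 22 measured genes of export, cap and Sm ring assembly and trimming 5 were called lower and 2 higher in USFKD cells at 7 days and 5 lower and 1 higher in sshRNA cells. Over all clusters 2.66% were called lower and 7.29% higher in USFKD cells, so the share of genes called higher is near that background, and 4.81% and 11.5% in sshRNA cells. Prmt5, the arginine methyltransferase that prepares Sm proteins for assembly, averaged 13.01 ± 0.12 in USFKD 7d IR and 14.37 ± 0.09 in USFKD no IR cells, and 12.52 ± 0.13 in sshRNA 7d IR and 14.69 ± 0.11 in sshRNA no IR cells (SD, n = 3 each). Prmt5 fell by 1.36 in USFKD cells (adjusted p = 9.21e-06) and fell by 2.17 in sshRNA cells (adjusted p = 5.67e-08). Its cofactor Wdr77 fell by 1.35 and 1.58, and the nuclear cap-binding gene Ncbp2 fell by 1.38 in sshRNA cells. Gemin8, of the SMN complex, was higher by 0.96 ± 0.15 in USFKD cells (adjusted p = 0.000496), a change of 0.0083 on the 95th percentile of the negative control rows. Of the mRNAs named in these lists Nkap, Dhx37, Hexim1, Imp3, Tia1, Snapc4, Gemin8, Pwp2 and Ints2 had means over all arrays of 7.58 to 9.13, below the 95th percentile of the negative control rows on the 7d IR arrays.

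**Figure D5:**
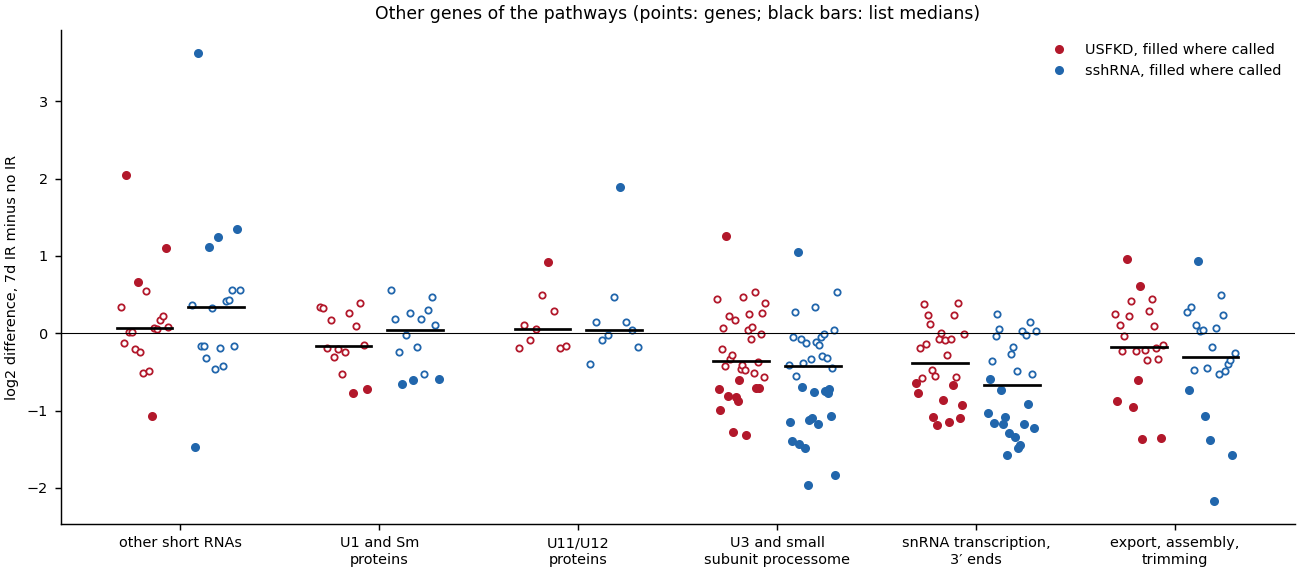
Log2 difference between 7d IR and no IR cells (y axis) for each measured gene of the 6 lists (x axis) in USFKD (red, left) and sshRNA cells (blue, right), filled where called and with black bars at the list median. In the list of the U3 snoRNP and small subunit processome 10 of 34 genes were called lower in USFKD and 15 in sshRNA cells, with medians of -0.35 and -0.43.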

How the data were processed

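Labelled cDNA of total RNA was hybridised to 18 Affymetrix Mouse Transcriptome 1.0 arrays. The log2 values deposited by the authors come from RMA, which adjusts background, equalises the distributions of the arrays and summarises probes, and the submitters' notes also name Affymetrix Expression Console. Versions and the genome build are not given in the sources used here. In 1339 of the 72688 rows a value exceeds 16, the limit of a 16-bit scanner, so the exact path from scan to value is unknown. No depth applies to arrays, and their number limits the precision. All 18 columns were used as deposited.

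The members and lists were chosen with earlier results of these data known. Text names the 10 members, the 5 symbols most like each family and, per list and comparison, called genes among the 4 largest changes. Symbols come from the platform annotation, and biotypes, lengths and neighbours from RefSeq (GRCm38.p6). No sequence of these RNAs was in the sources used here.

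One mean per group was fitted to all rows with limma 3.58.1 in R 4.3.3 (12 residual degrees of freedom, prior 2.65), and p-values were adjusted by Benjamini-Hochberg within each of 11 contrasts, 3 of them without a test of the members, and no p-value is given for a family where its choice favoured the difference. Lists were described by counts and medians. The fit was tested on simulated data. Alternatives were 12 planned and 4 added after seeing the data (the dimmer cluster, the 95th and 99th percentiles of the negative control rows, and no 7d IR arrays).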

Additional observations from a re-analysis of the deposited data

Results flagged for a closer look

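For 12 of the 123 measured genes of the lists, against 2.07% of all clusters, the response at 7 days differed between the lines by the interaction term of the limma fit (the 7-day change of the USFKD line less the 7-day change of the sshRNA line). In 1 of them, Snrnp48 of the U11/U12 particle, the difference was negative, at -0.96 ± 0.22 (adjusted p = 0.0314). Snrnp48 was higher at 7 days in both lines, by 0.92 in USFKD and 1.89 in sshRNA cells. In the other 11 the difference was positive, which does not mean a stronger response in USFKD cells. Ints3, Ints9, Ints14, Nol6, Wdr46, Prmt5 and Ncbp2 fell in both lines, and by less in USFKD cells. Phax, Aatf, Nkap and Ints13 changed by 0.61, 0.45, 0.17 and 0.12 in USFKD cells and were lower in sshRNA cells. Over all clusters the difference was called positive in 1.15% and negative in 0.92%. Of the clusters with a mean above 12, it was called positive in 3.38% and negative in 3.93%.

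Among genes of snRNA transcription and 3′ end formation, the Integrator subunits Ints9 differed by 1.20 ± 0.15 (adjusted p = 0.00164), Ints3 by 1.02 ± 0.20 (adjusted p = 0.0177), Ints13 by 0.85 ± 0.14 (adjusted p = 0.007) and Ints14 by 0.69 ± 0.14 (adjusted p = 0.0211). Ints9 changed by -0.29 in USFKD and by -1.49 in sshRNA cells. Among processome genes, Wdr46 differed by 1.27 ± 0.30 (adjusted p = 0.0426), Nol6 by 1.14 ± 0.17 (adjusted p = 0.00477) and Aatf by 0.86 ± 0.18 (adjusted p = 0.0256). Nol6 changed by -0.82 in USFKD and by -1.96 in sshRNA cells. Prmt5 differed by 0.81 ± 0.18 (adjusted p = 0.0298), Ncbp2 by 0.77 ± 0.12 (adjusted p = 0.00682), the snRNA export adaptor Phax by 0.79 ± 0.16 (adjusted p = 0.0193) and Nkap by 0.82 ± 0.14 (adjusted p = 0.00889).

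Leaving out 1 array at a time ended the call of Wdr46 for 14 of 18 arrays (adjusted p of 0.0511 to 0.110), of Prmt5 for 8 (0.0547 to 0.0796), of Snrnp48 for 8 (0.0544 to 0.0760), of Aatf for 5 (0.0518 to 0.0689) and of Ints14 for 3 (0.0536 to 0.0613). Without sshRNA no IR replicate 2 the calls of Phax (0.79, adjusted p = 0.0543) and Ints3 (1.01, adjusted p = 0.0506) were lost. Those of Ints9, Ints13, Nol6, Ncbp2 and Nkap kept their side of the threshold with each array left out.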

How the results depend on the processing

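The number of members called changed by more than 1.5 times in these cases. For USFKD no IR against sshRNA no IR it was 8, and 0 on the 95th percentile of the negative control rows, with 4 to 8 over arrays left out in turn. For USFKD 7d IR against sshRNA 7d IR it was 6, 2 after quantile normalization and 0 with only the arrays compared, with 2 to 7 over arrays left out. For USFKD 7d IR against USFKD 1d IR it was 6, and 2 on the 95th percentile. Members past 1.5-fold in the difference in response at 1 day were 9, 3 on the 95th and 5 on the 99th percentile, with 4 to 9 over arrays left out. Other counts of members stayed within 1.5 times, with the cause of the changes not tested. Counts of the lists moved as well. On the 95th percentile 24 of 26 genes of snRNA transcription were called lower at 7 days in USFKD and 26 in sshRNA cells. For the processome these counts were 29 and 33 of 34, and for export, cap and Sm assembly 18 and 21 of 22. They were 13 and 14 of 14 for U1 and Sm proteins, 7 and 8 of 9 for U11/U12 proteins, and 14 of 18 other short RNAs in each line. This centring moves every row of a comparison by the same amount. The share of all clusters called lower under it was not computed, so nothing is read from these counts about the lists.

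Directions turned as follows. On the 95th percentile of the negative control rows the 7-day change was -0.29 (sshRNA) and -0.60 (USFKD) for Rnu1a1, -0.060 for Rnu1b6, -0.026 for Snrnp48 and -0.28 for Rnu12 in USFKD cells, and -0.17 for Terc and -0.27 for Rnu6 in sshRNA cells. Rnu1b6 was -0.41 between 7 days and 1 day in sshRNA cells, and USFKD no IR against sshRNA no IR gave -0.37 for Rnu11 and -0.14 for Rnu3a. On the 99th percentile the 7-day change in USFKD cells was -0.39 for Rnu1a1 and -0.074 for Rnu12, the 1-day change of Rnu1a1 was -0.0046, and Rnu11 was -0.19 without irradiation. On the median of those rows Rnu1a1 was -0.10 at 7 days in USFKD cells and Rnu11 -0.10 without irradiation, and over arrays left out in turn Rnu11 ranged from -0.028 (without USFKD no IR replicate 1) to 0.34. The dimmer Rnu3b4 cluster gave -0.58, -0.13 and -0.10 for USFKD against sshRNA without irradiation and at 1 day and for the 1-day change in sshRNA cells, and 0.45 and 0.12 for the differences in response at 1 and 7 days.

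Replicate numbers did not pair the arrays: over 45 same-numbered pairs the correlation of deviations had a median of 0.0473, from -0.607 to 0.336. With the replicate block the counts of members called or past 1.5-fold were the same as without it (8 without irradiation and 6 at 7 days between the lines, 10 in sshRNA and 9 in USFKD cells over 7 days), and the calls of Snrnp48 and Wdr46 in the difference in response were lost (adjusted p = 0.0538 and 0.0648).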
